A study of Mus musculus with 6 samples.

Results

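The chemokines described here are the CXC and CX3C ligands Cxcl1, Cxcl2, Cxcl3, Cxcl5, Cxcl9, Cxcl10, Cxcl11, Cxcl14, Cxcl16 and Cx3cl1, taken as the rows of the deposited expression table that carry one of these symbols. Of the 10 genes, 9 had a row among the 36870 distinct symbols of the table. Cxcl11 was not matched under its current or older symbols and was not analysed here. RNA-seq was performed on bone marrow mesenchymal stem cells (BMMSCs), the adherent cells grown out of flushed marrow, from C57BL/6 mice. The control group was 3 libraries from cells that received a non-targeting siRNA according to the labels, although the sequencing methods call these cells vehicle-treated. The Tet1/Tet2 siRNA group was 3 libraries from cells that received siRNAs against both Tet1 and Tet2, enzymes that oxidise 5-methylcytosine in DNA. No other allele or agent separates the groups in the labels, which give passage 2 for the cells, whereas the paper's methods give an earlier passage for mouse BMMSCs. The age of the mice, and whether replicates were separate animals or cultures, are not given for these libraries, so p-values measure only the spread between these samples. Values are RPKM, read numbers corrected for gene length and library size. By an estimate from low values the libraries held between 32400000 and 38700000 reads.

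Chemokines are small proteins that draw leukocytes along a gradient through G protein-coupled receptors. Cxcl9, Cxcl10 and Cxcl11 bind Cxcr3 on activated T cells and natural killer cells, and their genes are classical targets of interferon and its regulatory factors. Cxcl1, Cxcl2, Cxcl3 and Cxcl5 bind Cxcr2 and draw neutrophils, and their genes are classical targets of NF-kappaB downstream of interleukin-1, TNF and interleukin-17. Cxcl14 is a largely homeostatic chemokine of epithelial and stromal cells. Cxcl16 and Cx3cl1 are made as membrane proteins with a mucin-like stalk, act as adhesion molecules for cells with Cxcr6 and Cx3cr1, and are shed by the proteases Adam10 and Adam17. In bone marrow, CXC chemokines help to set whether neutrophils and lymphocytes stay or leave.

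The targeted genes and the cell type markers were examined before the chemokines. By the test described below, 29.8% of the 13266 genes tested were lower in the siRNA group and 14.7% were higher. Tet2 was between 2.57 and 4.08 RPKM in the control libraries and between 0.202 and 0.358 RPKM in the siRNA libraries, whereas Tet1 was at or under 0.098 RPKM in each library and was not tested. Of 12 marrow stromal markers, 10 were tested and 7 were lower in the siRNA group, and the summed level of the list was 1096 to 1589 RPKM in the control libraries and 195 to 333 RPKM in the siRNA libraries. Vcam1 was the 1 stromal marker that was higher. Thy1 and Lepr, both used to define marrow stroma, were below the minimum for testing. Macrophage markers were abundant in both groups, and of 9 tested 5 were higher and 2 were lower, with a summed level of 5555 to 7283 RPKM in the control libraries and 12455 to 15367 RPKM in the siRNA libraries. Lyz2, with group means of 4439 and 11321 RPKM, made up most of these sums. The median log2 fold change of the macrophage list was 0.20. The 2 lower markers were Mrc1 and Fcgr1, the latter with means of 109.1 RPKM in the control group and 27.8 RPKM in the siRNA group. Ptprc, which encodes the leukocyte antigen CD45, was between 47.2 and 59.3 RPKM over the 6 libraries. Neutrophil markers summed to 10.3 to 10.4 RPKM in the control libraries and 22.9 to 32.0 RPKM in the siRNA libraries, with 3 of 8 tested, 2 higher and 1 lower, and with S100a9 and Retnlg at the lowest listed value in each library. Endothelial markers summed to 2.54 to 2.95 RPKM and 1.44 to 1.81 RPKM, with 2 of 5 tested markers lower and 1 higher, and none of 6 lymphoid markers reached the minimum for testing, with sums of 0.075 to 0.11 RPKM and 0.056 to 0.078 RPKM. These shifts accompany every chemokine difference below and their part in those differences was not tested. In bulk RNA, fewer cells that make a chemokine and less of its RNA per cell cannot be told apart.

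Among the chemokines, the Cxcr3 ligands Cxcl9 and Cxcl10 and the Cxcr2 ligands Cxcl1 and Cxcl5 were much lower in Tet1/Tet2 siRNA-treated cells than in the control group, Cx3cl1 was lower to a smaller extent, and Cxcl14 and Cxcl16, the most abundant ligands in both groups, were at 31.8 RPKM or more in each library. With limma on log2(RPKM + 1), 8 members could be tested, those whose mean reached 0.1 RPKM. Of these 8, 6 were lower at an adjusted p under 0.05, 0 were higher and 2 did not pass. Over the 13266 genes tested, 29.8% were called lower and 14.7% higher. The median log2 fold change was -0.81 over the tested members and -0.09 over the genes tested. Cxcl9 and Cxcl5 reached the minimum through the control group alone, and Cxcl3 did not reach it, so the count describes the tested members and not the family. The 2 groups of libraries did not overlap for 6 of the 8, each lower in the siRNA group. Among the genes tested, 35.9% were lower without overlap and 19.8% higher without overlap. With a fold change over 2 on the log2(RPKM + 1) scale required as well, 2 members were lower, Cxcl10 and Cxcl1, and 0 were higher, beside 5.63% and 0.950% of the genes tested.

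**Figure D1:**
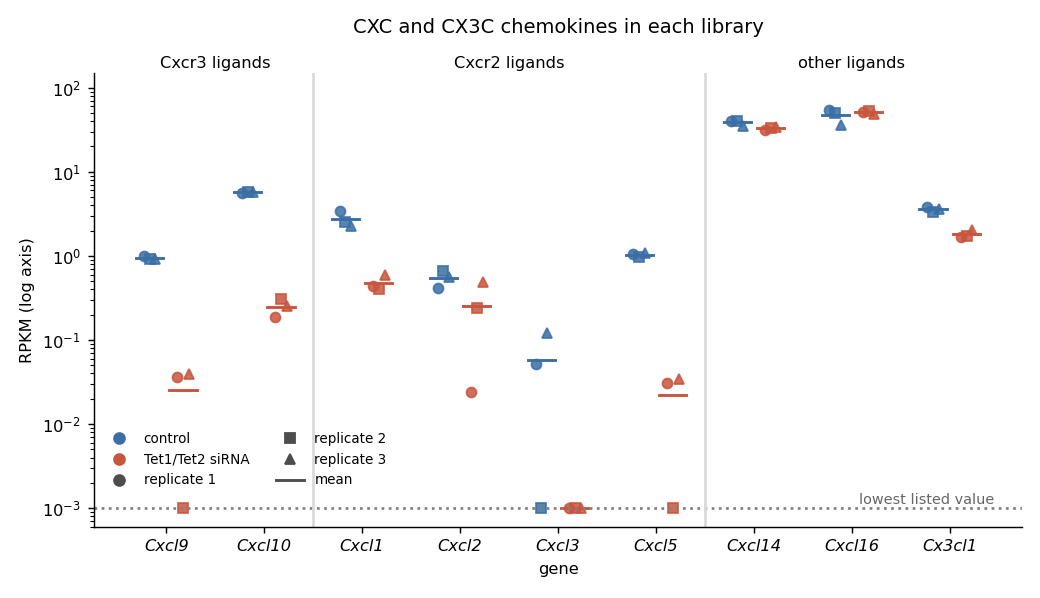
RPKM of the 9 chemokines with a row in the table, on a log axis, in 3 control (blue) and 3 Tet1/Tet2 siRNA (red) libraries, with a horizontal bar at each group mean and a dotted line at the lowest listed value of 0.001. The siRNA libraries sit below the control libraries for Cxcl9, Cxcl10, Cxcl1, Cxcl5 and Cx3cl1 by a visible gap. For Cxcl14 the groups lie close together on this axis without overlap, and for Cxcl16 they overlap.

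Cxcl10, which draws Cxcr3-bearing T cells, ranked 3 by level in the control group, where its libraries lay close together. It lies on chromosome 5 of GRCm38 from 92346638 to 92348889 on the minus strand. Its level was 5.66, 5.73 and 5.73 RPKM in the control libraries and 0.188, 0.305 and 0.256 RPKM in the siRNA libraries. Each siRNA library was thus far below the lowest control library, and the group means were 5.71 ± 0.0410 RPKM (SD, n = 3) and 0.250 ± 0.0588 RPKM (SD, n = 3), a ratio of 22.9. On the log2(RPKM + 1) scale the fold change was -2.42 (standard error 0.0779, 95% interval -2.60 to -2.25, Benjamini-Hochberg adjusted p = 6.25e-07 from limma). By decrease it ranked 89 and by p-value 18 among the 13266 genes tested. The estimated reads behind these values were 251 to 287 in the control libraries and 10 to 16 in the siRNA libraries. Art3, on the opposite strand, shares 133 exonic bases with Cxcl10, and the use of strand in the counting is not given in the sources used here. Art3 itself was between 0.016 and 0.368 RPKM over the 6 libraries, below the Cxcl10 level of each control library.

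The sequence before the Cxcl10 start is shown because it holds motifs of both upstream routes that the chemokines are known for. The window is the 250 bases before the RefSeq start on GRCm38.p6, chr5:92348890-92349139, read 5′ to 3′ on the minus strand, and capitals mark matches to an interferon-stimulated response element (ISRE) core and to the NF-kappaB consensus.
Cxcl10: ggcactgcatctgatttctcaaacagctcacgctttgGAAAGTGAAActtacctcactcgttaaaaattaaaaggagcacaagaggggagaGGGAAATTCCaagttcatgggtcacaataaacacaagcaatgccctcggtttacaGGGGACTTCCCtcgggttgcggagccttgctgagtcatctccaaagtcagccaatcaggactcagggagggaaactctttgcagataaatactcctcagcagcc
The ISRE core was searched on both strands as GAAA repeated after a gap of any 2 bases, and the match began 213 bases before the start. The NF-kappaB consensus was matched at 159 bases and, as a pair of overlapping matches, at 104 and 103 bases before the start. Over 32851 promoter windows of the same length, 2.98% held the ISRE core and 7.25% held the NF-kappaB consensus. The gamma-activated site (GAS), searched as TTCNNNGAA, was in 7.02% of windows and was not matched in that of Cxcl10. These matches describe letters in the reference and no binding was measured.

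Cxcl9, the other Cxcr3 ligand with a row, lies in the same cluster on the minus strand of chromosome 5, from 92321347 to 92328079. Its level was 0.99, 0.930 and 0.922 RPKM in the control libraries and 0.036, 0.001 and 0.039 RPKM in the siRNA libraries, where 0.001 is the lowest value the table lists. The control libraries were close to one another and the siRNA libraries were near the limit of detection, with about 4, 0 and 4 reads against 86 to 107 in the control libraries. The log2 fold change was -0.93 (standard error 0.0606, 95% interval -1.06 to -0.79, adjusted p = 1.66e-05 from limma), which understates the ratio of the means of 37.4 because of the pseudocount of 1. As Cxcl9 reached the minimum for testing through the control group alone, its p-value only describes these libraries and rests on very few siRNA reads. The promoter window of Cxcl9 held none of the 3 motifs. Cxcl11, the third Cxcr3 ligand, is annotated as a polymorphic pseudogene in GENCODE M21, and C57BL/6 mice are known to carry a null allele of it. The processed pseudogene Gm2673, on the opposite strand, shares 1582 exonic bases with Cxcl11.

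The Cxcr2 ligands, which draw neutrophils, were lower in the siRNA group for the 2 members with the highest control levels. Cxcl1, an early neutrophil attractant of stressed tissue, was at 3.37, 2.52 and 2.29 RPKM in the controls and at 0.435, 0.405 and 0.590 RPKM in the siRNA libraries. The highest siRNA library was well below the lowest control library, and the control libraries varied more for Cxcl1 than for Cxcl10. The group means differed by a ratio of 5.72, and the fitted difference was -1.33 on the log2(RPKM + 1) scale (standard error 0.117, 95% interval -1.60 to -1.06, adjusted p = 6.53e-05 from limma). Cxcl5, a Cxcr2 ligand best known from epithelium, was at 1.06, 0.961 and 1.08 RPKM in the controls and at 0.031, 0.001 and 0.034 RPKM in the siRNA libraries. The siRNA values of Cxcl5 stood for about 2, 0 and 2 reads, against 50 to 63 reads in the control libraries. Cxcl5 had a log2 fold change of -0.99 (SE 0.0624, 95% interval -1.14 to -0.85, adjusted p = 1.39e-05 from limma). The ratio of its group means was 47.0, which the fold change understates because of the pseudocount of 1. As Cxcl5 reached the minimum for testing through the control group alone, its p-value only describes these libraries and rests on very few siRNA reads.

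Cxcl2, a neutrophil attractant that macrophages make in quantity on stimulation, did not pass the test. It was at 0.418, 0.666 and 0.568 RPKM in the controls and at 0.024, 0.238 and 0.494 RPKM in the siRNA libraries. The groups overlapped, since siRNA replicate 3 exceeded control replicate 1. For Cxcl2 the log2 fold change was -0.32 (standard error 0.133, 95% interval -0.63 to -0.02, unadjusted p = 0.0408 and adjusted p = 0.0811 from limma). With the replicate number as a block the adjusted p was 0.0230, and without siRNA replicate 3 the log2 fold change was -0.46 with an adjusted p of 0.0131 from limma. Cxcl3, a close paralog of Cxcl2, was at 0.052, 0.001 and 0.121 RPKM in the controls and at 0.001 RPKM in each siRNA library, or about 2, 0 and 4 reads against none. Cxcl3 was below the minimum for testing, and with no minimum its log2 fold change was -0.078 (SE 0.0445, adjusted p = 0.569 from limma), so a difference was not detectable at this depth. Cxcl1, Cxcl2 and Cxcl3 are paralogs of similar sequence, so reads could have been split between them, and how the authors treated such reads is not given in the sources used here.

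A stretch before the start of Cxcl1, Cxcl2 and Cxcl3 is shown because the 3 paralogs share an NF-kappaB match there while their levels differed. Each stretch is on the plus strand of GRCm38.p6, read 5′ to 3′ from the RefSeq promoter windows, and capitals mark the match. The positions are chr5:90891144-90891229 for Cxcl1, chr5:90903772-90903857 for Cxcl2 and chr5:90785998-90786083 for Cxcl3.
Cxcl1: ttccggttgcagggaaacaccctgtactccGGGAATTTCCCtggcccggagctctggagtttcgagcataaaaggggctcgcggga
Cxcl2: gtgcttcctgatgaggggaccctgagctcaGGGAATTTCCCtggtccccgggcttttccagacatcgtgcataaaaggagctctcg
Cxcl3: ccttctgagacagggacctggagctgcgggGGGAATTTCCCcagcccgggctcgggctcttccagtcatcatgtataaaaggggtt
The marked run of 11 bases, which is matched on both strands in overlapping positions, is the longest run that the 250-base windows of the 3 genes have in common. It began 71 bases before the start of Cxcl1, 97 bases before that of Cxcl2 and 73 bases before that of Cxcl3. Neither the ISRE core nor the GAS motif was matched in these windows. Of the 10 genes, 7 had a window, and Cxcl5, Cxcl11 and Cxcl16 had none. The window of Cxcl14 held the ISRE core at 172 bases and a GAS match at 191 bases before the start, and that of Cx3cl1 held none of the 3 motifs. CpG dinucleotides, the sites at which DNA is methylated, numbered 3 in the window of Cxcl9, 5 for Cxcl10, 7 for Cxcl3, 9 for Cxcl2, 10 for Cxcl1, 14 for Cx3cl1 and 16 for Cxcl14, against a median of 6 over the windows. DNA methylation at these windows was not analysed here.

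Cxcl16, the ligand of Cxcr6 and a scavenger receptor for oxidised lipoprotein, was the most abundant member. Its level was 54.1, 50.3 and 36.1 RPKM in the control libraries and 51.8, 52.3 and 48.8 RPKM in the siRNA libraries, so that control replicate 3 was the lowest of the 6. The log2 fold change was 0.14 with a 95% interval from -0.17 to 0.45 (standard error 0.134, adjusted p = 0.431 from limma), and without control replicate 3 it was -0.03 with an adjusted p of 0.652. Control replicate 3 also had the highest Col1a1, a stromal collagen gene, at 654.7 RPKM against 416.3 and 394.2 RPKM in the other control libraries. Cxcl16 shares 552 exonic bases with Zmynd15 on the opposite strand, which was between 1.14 and 1.37 RPKM in each library.

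Cxcl14, the homeostatic chemokine, was at 40.6, 40.4 and 35.4 RPKM in the controls and at 31.8, 33.1 and 33.7 RPKM in the siRNA libraries. The groups did not overlap, but the lowest control library was 1.05 times the highest siRNA library. The log2 fold change was -0.23 (standard error 0.0704, 95% interval -0.39 to -0.07, adjusted p = 0.0292 from limma). This call was lost in 9 of 18 other settings, among them scaling by the median ratio, where the log2 fold change was -0.11 and the adjusted p 0.251, and the fits without control replicate 1 or 2 or siRNA replicate 1 or 2, where the adjusted p was 0.0803 to 0.108.

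Cx3cl1, or fractalkine, the single CX3C chemokine and the ligand of Cx3cr1 on monocytes and macrophages, was at 3.86, 3.29 and 3.56 RPKM in the controls and at 1.68, 1.72 and 2.05 RPKM in the siRNA libraries. The groups were clearly apart, and the mean of the siRNA group was 51.0% of the control mean. For Cx3cl1 the log2 fold change was -0.70 (standard error 0.0935, 95% interval -0.91 to -0.48, adjusted p = 0.000534 from limma). Cx3cl1 lies on chromosome 8 from 94772009 to 94782427, Cxcl14 on chromosome 13 from 56288643 to 56296551 and Cxcl16 on chromosome 11 from 70453983 to 70459984, all on GRCm38 and outside the chromosome 5 clusters.

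**Figure D2:**
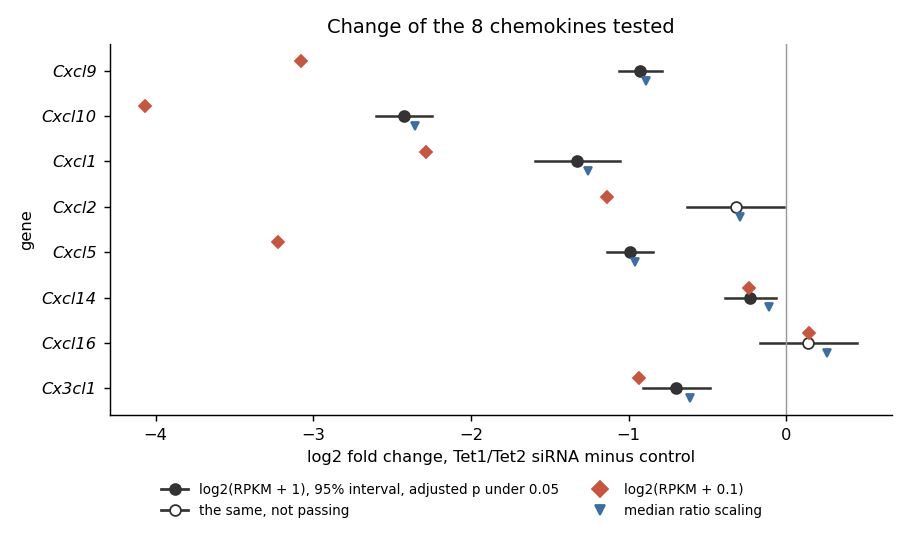
Log2 fold change of the 8 tested chemokines, Tet1/Tet2 siRNA minus control, with black points and 95% intervals from limma on log2(RPKM + 1), red diamonds for a pseudocount of 0.1 and blue triangles for median ratio scaling; open circles did not pass the test. Cxcl10 lies furthest to the left at -2.42, Cxcl16 has an interval across 0, and the smaller pseudocount moves the genes with low RPKM, such as Cxcl9 and Cxcl5, far to the left.

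Within each library, Cxcl10 of the interferon-driven ligands was then set against Cxcl1 of the neutrophil attractants and against other ligands. A ratio of RPKM in the same library does not depend on how libraries are scaled. The ratio of Cxcl10 to Cxcl1 was 1.68, 2.28 and 2.50 in the control libraries and 0.432, 0.753 and 0.434 in the siRNA libraries. Cxcl10 was thus the higher of the 2 in each control library and the lower in each siRNA library, and the mean ratio fell 3.99-fold. Against Cx3cl1, the ratio of Cxcl10 was 1.47 to 1.74 in the control libraries and 0.112 to 0.177 in the siRNA libraries, and against Cxcl16 it was 0.105 to 0.159 and 0.00363 to 0.00584. The ratio of Cxcl1 to Cx3cl1 was 0.642 to 0.874 in the control libraries and 0.235 to 0.288 in the siRNA libraries. Of the ligands compared this way, Cxcl10 was therefore lowered by the largest factor, followed by Cxcl1 and then Cx3cl1. This order does not rank the 2 classes, since Cxcl5 and Cxcl9 were not compared this way. The ratios of their group means were 47.0 and 37.4, larger than the 22.9 of Cxcl10, but on about 4 reads or fewer in each siRNA library. Cxcl14 against Cxcl16 moved least, from 0.750 to 0.979 in the control libraries to 0.615 to 0.691 in the siRNA libraries. For each of the 7 ratios computed the groups did not overlap. The ratios share genes, and the share of other gene pairs without overlap was not computed. Of single genes tested, 35.9% were lower and 19.8% higher without overlap. No p is given because the smallest that an exact permutation test of 3 against 3 allows is 0.1.

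The order of the ligands by level changed accordingly. In the control group Cxcl16 (46.8 RPKM) and Cxcl14 (38.8 RPKM) led and overlapped each other, followed by Cxcl10, then Cx3cl1 (3.57 RPKM) and Cxcl1 (2.73 RPKM), which overlapped, then Cxcl5 (1.03 RPKM) and Cxcl9 (0.947 RPKM), which overlapped, and then Cxcl2 (0.551 RPKM) and Cxcl3 (0.058 RPKM). In the siRNA group Cxcl16 (50.9 RPKM), Cxcl14 (32.9 RPKM) and Cx3cl1 (1.82 RPKM) were each apart from the next. Cxcl1 (0.477 RPKM) overlapped Cxcl2 (0.252 RPKM), and Cxcl2 overlapped Cxcl10 (0.250 RPKM), which had moved from rank 3 to rank 6. Cxcl9, Cxcl5 and Cxcl3 came last and overlapped. Cxcl14 and Cxcl16 together made up 83.4% to 86.6% of the summed RPKM of the 9 chemokines in the control libraries and 96.0% to 97.2% in the siRNA libraries. The share of Cxcl10 was 5.14% to 6.68% and 0.219% to 0.346%, respectively. The sum itself was 85.7 to 110.1 RPKM in the control libraries and 86.0 to 88.0 RPKM in the siRNA libraries, so that these groups overlapped.

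With Cxcl11 aside, 6 of the genes lie in the chemokine clusters of chromosome 5, which hold further CXC ligands. The span from Cxcl5 to Cxcl2 covers 147 kb and holds 7 ligand genes in the order Cxcl5, Ppbp, Pf4, Cxcl3, Cxcl15, Cxcl1 and Cxcl2, and the span from Cxcl9 to Cxcl11 covers 44 kb and lies 1415 kb further on. Pf4, a platelet chemokine that macrophages also express, was at 284.0, 241.4 and 179.8 RPKM in the controls and at 540.2, 646.3 and 623.2 RPKM in the siRNA libraries. Unlike its tested neighbours among the members, Pf4 was higher, by 1.38 on the log2 scale (SE 0.157, adjusted p = 0.000228 from limma). Ppbp, another platelet chemokine and a Cxcr2 ligand, was also higher, by 0.63 on the log2 scale (SE 0.138, adjusted p = 0.00665 from limma), at 0.139 to 0.228 RPKM in the control libraries and 0.480 to 1.25 RPKM in the siRNA libraries. Cxcl15 was at the lowest listed value in each library. Pf4 starts 13.1 kb after the start of Cxcl5, so neighbouring ligand genes were called in both directions.

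**Figure D3:**
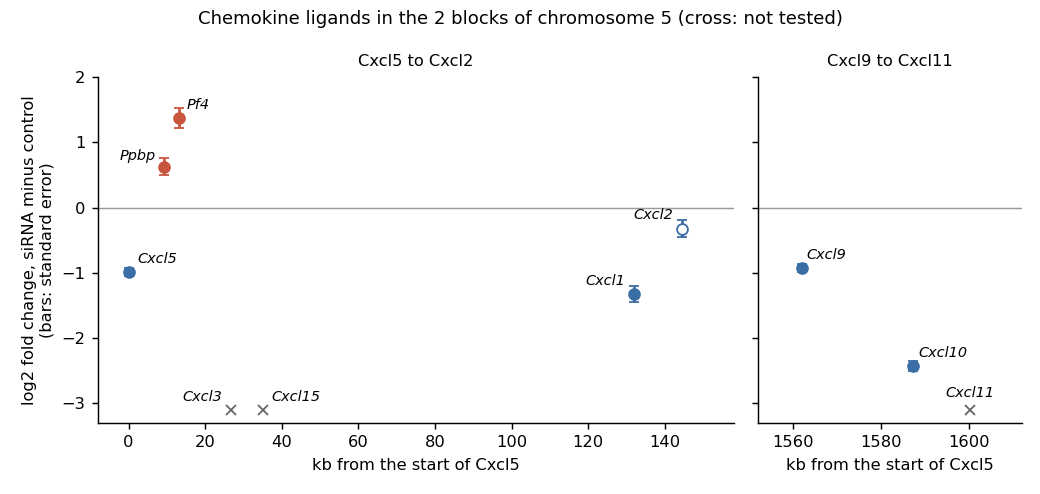
Log2 fold change, Tet1/Tet2 siRNA minus control, of the chemokine ligand genes in the clusters of chromosome 5 against distance in kb from the start of Cxcl5, with standard errors; filled points passed the test, the open point did not, and crosses at the foot of the panels mark genes without a test. Ppbp and Pf4 lie above 0, between Cxcl5 and Cxcl1, which lie below 0.

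The other chemokine ligands were set beside 29.8% lower and 14.7% higher over the genes tested. Of these ligands, 7 were listed and 3 were tested, of which 2 were higher (Pf4 and Ppbp) and 1 was lower, and the median change was 0.63 on the log2 scale. The lower one was Cxcl12, the stromal ligand of Cxcr4 that retains blood cell progenitors in the marrow, at 40.9, 31.8 and 44.1 RPKM in the controls and at 3.29, 3.79 and 4.91 RPKM in the siRNA libraries (a log2 difference of -3.00, SE 0.149, adjusted p = 4.81e-06 from limma). Cxcl12 thus stood beside Cxcl14 in level in the control group but not in the siRNA group. Cxcl13, Cxcl15 and Cxcl17 were at the lowest listed value in each library.

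Among the receptors, 4 of 10 reached the minimum for testing, of which 2 were higher and 1 was lower, beside 29.8% lower and 14.7% higher over the genes tested. The median change of the receptors was 0.22 on the log2 scale. Cxcr3, the receptor of Cxcl9 and Cxcl10, averaged 5.42 ± 0.398 RPKM (SD, n = 3) in the control group and 4.85 ± 0.609 RPKM (SD, n = 3) in the siRNA group, with overlapping libraries and an adjusted p of 0.308 from limma. Its 95% interval for the log2 fold change was -0.37 to 0.10, whereas that of its ligand Cxcl10 was -2.60 to -2.25. Cxcr2, the receptor of the neutrophil attractants, was below the minimum for testing. Cx3cr1, the receptor of Cx3cl1 and a marker of monocytes and macrophages, was higher, at 0.432 to 0.546 RPKM in the control libraries and 0.956 to 1.68 RPKM in the siRNA libraries (log2 fold change 0.57, adjusted p = 0.00577 from limma). Cxcr6, the receptor of Cxcl16, was lower at 0.250 to 0.386 RPKM and 0.103 to 0.162 RPKM (log2 fold change -0.22, adjusted p = 0.0268 from limma). Cxcr4 was higher, with means of 12.5 RPKM and 47.5 RPKM (log2 fold change 1.84, adjusted p = 1.50e-05 from limma).

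Proteases known to shed or trim these chemokines did not share a direction. Of 8 listed, 7 were tested, with 3 higher, 1 lower and a median change of 0.02 on the log2 scale, beside 29.8% lower and 14.7% higher over the genes tested. Adam10 and Adam17, which shed Cxcl16 and Cx3cl1, were higher by 0.31 and 0.19 on the log2 scale (adjusted p = 0.00878 and 0.0230 from limma). The neutrophil collagenase Mmp8 was higher by 2.32, and Mmp2, a gelatinase of stromal cells, had a log2 fold change of -2.43. Ctss, which encodes cathepsin S, was the most abundant at means of 2051 and 2084 RPKM and did not pass the test, and neither did Mmp12.

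The routes upstream of the ligands were described by lists of genes, beside 29.8% lower, 14.7% higher and a median of -0.09 over the genes tested. On the interferon route, 13 of 15 genes were tested, of which 6 were lower and 1 was higher, and the median change was -0.03 on the log2 scale. The lower genes included the transcription factors Irf7 (-5.05 on the log2 scale), Stat2 (-2.13), Irf9 (-1.14) and Irf1 (-0.96) and the kinase Jak2 (-0.80). Stat2, which acts with Irf9 downstream of the type I interferon receptor, averaged 83.5 ± 5.39 RPKM (SD, n = 3) in the controls and 18.3 ± 1.08 RPKM (SD, n = 3) after siRNA, with no overlap. The receptor gene Ifnar1 was higher by 0.37, and Ifnar2, Ifngr1 and Ifngr2 did not pass the test. The interferon genes Ifnb1 and Ifng were below the minimum for testing.

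On the route of interleukin-1, TNF, interleukin-17 and NF-kappaB, 20 of 21 genes were tested. Over all genes tested, 29.8% were lower, 14.7% were higher and the median log2 fold change was -0.09. On this route 9 genes were lower and 1 was higher, and the median change was -0.16 on the log2 scale. Among the lower genes were the receptor genes Il17rc (-1.51) and Il1r1 (-1.23), the NF-kappaB cofactor Nfkbiz (-1.05), the cytokine Tnf (-0.97), the transcription factor Cebpd (-0.69) and the adaptors Myd88 (-0.52) and Traf3ip2 (-0.38). Il1r1 was at 1.72, 1.43 and 1.73 RPKM in the controls and at 0.064, 0.106 and 0.197 RPKM in the siRNA libraries. The NF-kappaB subunit genes Rela, Nfkb1, Nfkb2 and Relb and the inhibitor gene Nfkbia did not pass the test, and Cebpb was higher by 0.19 on the log2 scale. Zc3h12a (-0.38) and Tnfaip3 (-0.34), which limit inflammatory signals, were the remaining lower genes.

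**Figure D4:**
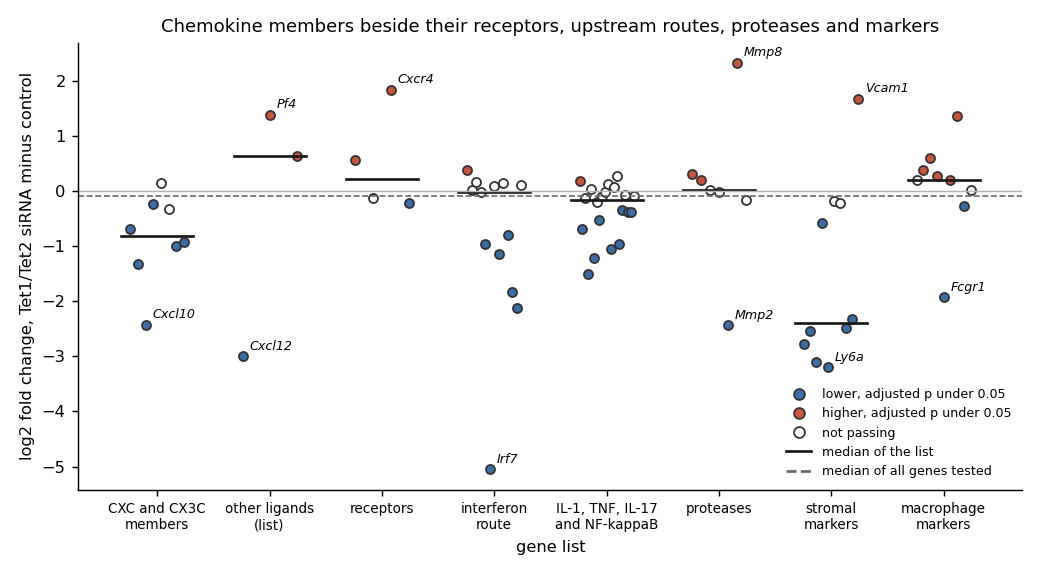
Log2 fold change, Tet1/Tet2 siRNA minus control, of each tested gene in the chemokine family and in the lists of other ligands, receptors, upstream routes, proteases and stromal and macrophage markers; blue points were lower and red points higher at an adjusted p under 0.05, open points did not pass, short bars are list medians and the dashed line is the median of -0.09 over the genes tested. The median of the chemokines (-0.81) lies between that of the interferon route (-0.03) and that of the stromal markers (-2.40).

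Genes whose pattern was most like that of a chemokine were sought by Pearson's r of log2(RPKM + 1) over the 6 libraries, among 11067 genes averaging 1 RPKM or more. For Cxcl10 and Cxcl1 the groups were far apart, so r mostly reflects the gap between them, whereas the groups of Cxcl16 overlapped. An r over 0.99 was reached by 312 genes with Cxcl10, 60 with Cxcl1 and 2 with Cxcl16. The nearest to Cxcl10 were Mnda, Ifi205 and Iigp1, interferon-inducible genes, each with an r that rounds to 1.00. Mnda was at 116.3, 124.5 and 116.8 RPKM in the controls and at 11.3, 13.0 and 12.5 RPKM in the siRNA libraries. For Cxcl1 the nearest included Mcu and Rbm19 (r of 0.999 and 0.998), and for Cxcl16 they were Cyc1, Tmem258 and Dynlt1f (r of 0.995, 0.993 and 0.989). Each of the 3 genes nearest to Cxcl16 was, like Cxcl16, lowest in control replicate 3.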

How the data were processed

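The authors sequenced total RNA of 6 libraries in paired-end mode on a HiSeq, trimmed adaptors, mapped the reads to GRCm38 and estimated abundance with DNASTAR Lasergene 15.0. They deposited RPKM on a linear scale in 1 table, a unit the methods call FPKM. A further column of the table holds the authors' own p-value, which was not used here. The annotation, whether strand was used and how reads with several matches were treated are not given in the sources used here. Of 36915 rows, 18360 were at the lowest listed value of 0.001 RPKM in each library.

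For the 37 symbols with several rows, that of highest mean was used. Genes averaging 0.1 RPKM or more over the libraries (13266) were compared on log2(RPKM + 1) with limma 3.58.1 in R 4.3.3 (lmFit, eBayes with trend), unpaired, two-sided, with Benjamini-Hochberg adjustment over the genes tested, and called at an adjusted p under 0.05. Fold changes on this scale understate those of low genes. On simulated data, 191 of 200 changed genes were recovered and 13 of 13066 unchanged genes were called. The changed genes all averaged 1 RPKM or more and were shifted by at least 1 on the log2 scale, with normal noise. The recovery therefore does not cover lower genes such as Cxcl9, Cxcl5 and Cxcl2, or smaller changes such as those of Cx3cl1 and Cxcl14. The members, gene lists, marker lists and tests were chosen with earlier results of these data known. The genes named are the members, the list genes that passed the test or had the highest means, and the 3 genes most like the leading member of each role; Col1a1 was singled out after its values were seen, and some genes are not reported here.

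Depth was estimated in Python 3.11.15 as the total at which low RPKM values come closest to whole reads; 52.9% to 57.6% of them lay within 0.1 of a whole read, against 20% by chance at a fixed depth, so it is an estimate, it covers no replicate error and no count test was run. Replicate numbers are shared between groups in the labels. The correlation across genes of deviations from group means was 0.149, 0.117 and 0.462 for numbers 1, 2 and 3, each over 0.1, so a fit with the number as a block was added, although control 1 with siRNA 2 gave 0.332 and no source says what a number stands for. Gene positions are from GENCODE M21 and promoter windows from RefSeq on GRCm38.p6, with motifs searched on both strands. In all, 19 alternatives were tried.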

Additional observations from a re-analysis of the deposited data

How the results depend on the processing

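The number of chemokines called lower was 6, and it was 2 when a fold change over 2 was also required, since Cxcl9, Cxcl5, Cx3cl1 and Cxcl14 then lost their calls. For Cxcl9 and Cxcl5 this loss came from the pseudocount of 1. With a pseudocount of 0.1 their log2 fold changes were -3.08 and -3.23. With 1 library left out in turn the number called lower ranged from 5 to 7, and in the other settings it was 4 (of 5 tested) to 7. The number called higher was 0 in each setting. Cxcl9, Cxcl10, Cxcl1, Cxcl5 and Cx3cl1 kept their direction, and apart from that fold change requirement their call, in each setting in which they were tested, with log2 fold changes for Cxcl10 from -4.49 (pseudocount of 0.01) to -2.28. The call of Cxcl14 was lost in 9 of 18 settings, with log2 fold changes of -0.30 to -0.11 over the 18. Cxcl2 passed the test in 3 of 17 settings, namely relative to Gapdh (adjusted p = 0.0286 from limma), with the replicate block (0.0230) and without siRNA replicate 3 (0.0131). Cxcl16 was reversed without control replicate 3, at -0.034, and ranged from -0.034 to 0.25 with 1 library left out in turn. It passed the test in no setting, and the cause was not tested. The replicate block changed no other call among the chemokines. The balance of calls over the genes tested depended on scaling, with 3952 lower and 1953 higher as reported, 2947 and 2868 after median ratio scaling, and 2627 and 3607 after quantile normalization, and the chemokines called lower were 5 under both. Cxcl3, and the siRNA values of Cxcl9 and Cxcl5, rest on a few reads. Since Cxcl9 and Cxcl5 reached the minimum for testing through the control group alone, the stability of their calls describes the tested values only.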
